A study of Homo sapiens with 12 samples.

Results

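Cyclins are the regulatory subunits that switch on the cyclin-dependent kinases (CDKs), and the transcripts of 9 of them were followed in human HCT116 colorectal carcinoma cells. The 9 genes were the rows of the deposited count table with the gene names CCND1, CCND2, CCND3, CCNE1, CCNE2, CCNA2, CCNB1, CCNB2 and CCNF, 9 of 58233 genes in all. They were ordered by the phase in which their proteins are known to act. The D-type cyclins respond to growth signals and work with CDK4 and CDK6 in G1, the E-type cyclins work with CDK2 at the G1/S transition, cyclin A2 works with CDK2 and CDK1 in S and G2, and the B-type cyclins work with CDK1 at entry into mitosis. Cyclin F is the exception, as it is the substrate-binding F-box subunit of a ubiquitin ligase and is not known to activate a kinase. In dividing cells the mRNAs of the E-type cyclins are highest around the G1/S transition and those of CCNA2, CCNB1, CCNB2 and CCNF in G2 and mitosis, so their level in a culture also depends on how many cells are in each phase.

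The study asked what the loss of SDS22, a regulator of the protein phosphatase PP1 encoded by PPP1R7, does to gene expression. All 12 libraries came from HCT116 Tet-OsTIR1 cells, in which the plant F-box protein OsTIR1 was inserted at the AAVS1 locus under a promoter induced by doxycycline (Dox). In the SDS22-degron line both PPP1R7 alleles had in addition been fused by CRISPR/Cas9 to mAID-mClover, a degron with a fluorescent protein, and the line was expanded from colonies that survived drug selection. Both lines were either left untreated or given 2 µg/ml Dox and 500 µM of the auxin IAA for 48 h, with 3 biological replicates in each of the 4 groups (parental untreated, parental Dox/IAA, SDS22-degron untreated and SDS22-degron Dox/IAA). The parental line therefore carried OsTIR1 and received the same agents, without the degron.

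The libraries held from 12133915 to 14657508 reads assigned to genes, and log2 levels correlated with an r of 0.9901 to 0.9947 between replicates of a group. PPP1R7 mRNA lay between 40.1 and 51.1 CPM (read counts scaled to the library total, after TMM correction) in all 12 libraries. The degron acts on the protein, so this mRNA does not check the labels. Of 10 colorectal epithelial markers, 8 had a mean above 10 CPM, while CDX1 was at 0 and VIL1 near 0. Leukocyte markers summed to at most 0.906 CPM and endothelial markers to at most 1.89 CPM. The 8 fibroblast markers, of which 5 were at 0 in all libraries, summed to 9.96 to 13.9 CPM untreated and 17.3 to 22.9 CPM treated in the parental line, and to 13.8 to 15.8 CPM untreated and 21.3 to 31.7 CPM treated in the SDS22-degron line. This sum was nearly all COL1A1, with a mean of 18.5 CPM, while COL3A1 and PDGFRB stayed at or below 0.330 and 0.235 CPM. The part of COL1A1 in the results was not tested.

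Of the 9 cyclins, 8 passed the filter on low counts. With Dox/IAA, 6 of them were called as lower in SDS22-degron cells, namely CCNE1, CCNE2, CCNA2, CCNB1, CCNB2 and CCNF, and none as higher. The falls were smallest for the E-type cyclins and largest for CCNB1, which kept 30.9% of its untreated level. Neither D-type cyclin that could be tested was called in this comparison. Among all 16657 genes tested, 25.5% were lower and 26.0% were higher with Dox/IAA in SDS22-degron cells at an adjusted p under 0.05 (edgeR quasi-likelihood test, Benjamini-Hochberg adjustment over all genes tested). The median log2 fold change was -0.86 over the 8 cyclins and 0.00455 over all genes. In parental cells given the same agents, the model without a replicate block called 1 cyclin, CCND3, which rose, where 15.7% of all genes were lower and 15.9% higher. Untreated and treated parental libraries with the same replicate number deviated together, and with the replicate number as a block 3 cyclins were called. CCNB1 then passed as lower at -0.29 (edgeR quasi-likelihood test with replicate block, adjusted p = 0.0253), and CCNE2 passed as higher at 0.30 (edgeR quasi-likelihood test with replicate block, adjusted p = 0.0212), beside CCND3. In these bulk samples, fewer cells in a phase and less RNA per cell cannot be told apart.

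**Figure D1:**
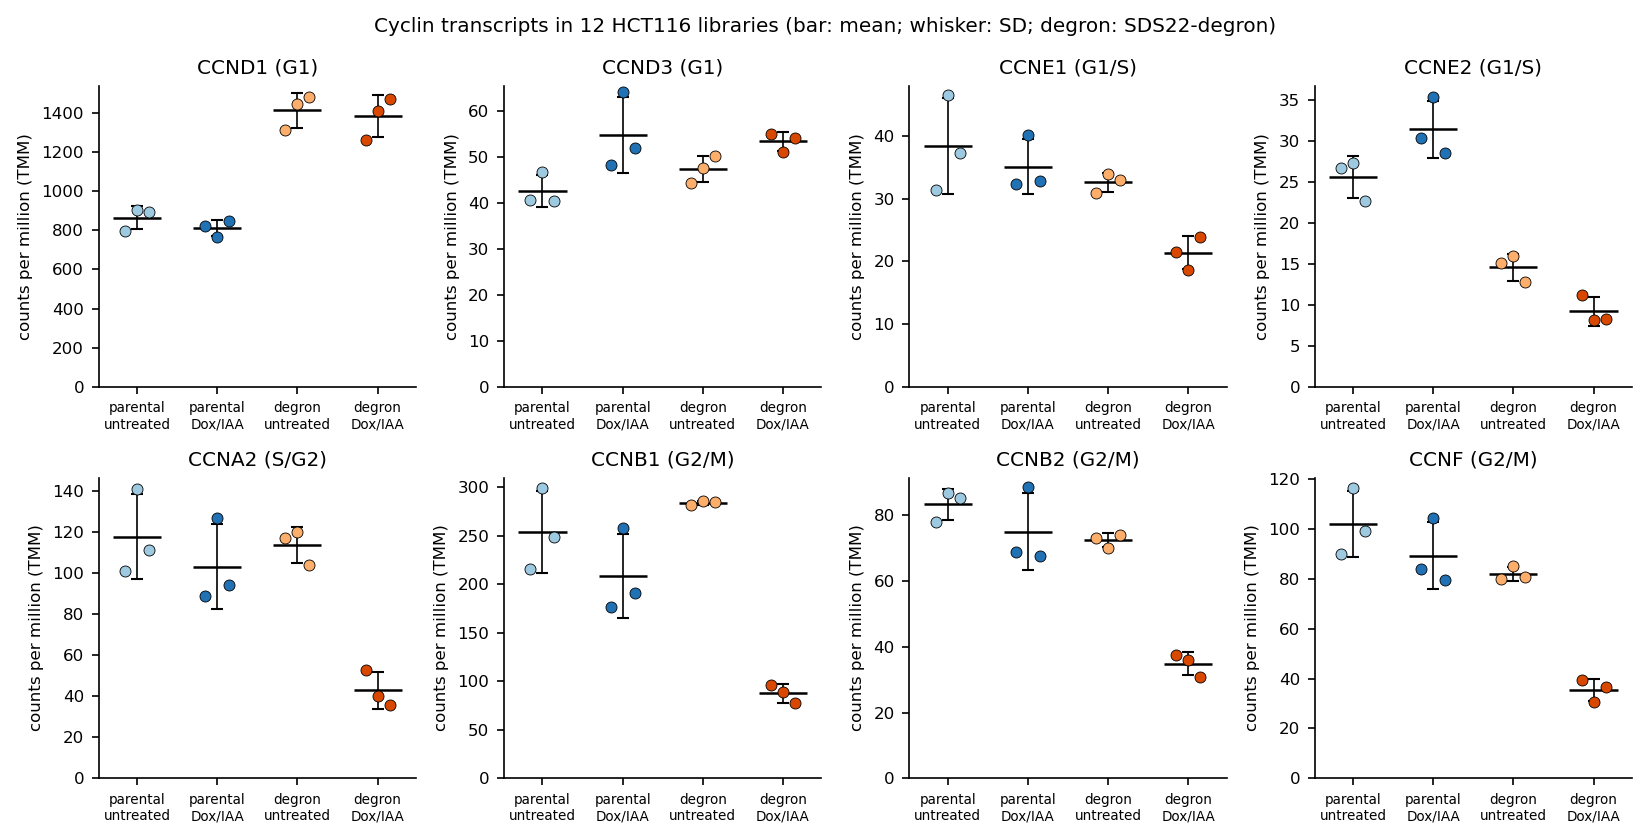
Level of each tested cyclin in CPM (y axes, from 0) in the 3 libraries of each group (points), with the mean (bar) and SD (whisker). In the panels for CCNE1, CCNE2, CCNA2, CCNB1, CCNB2 and CCNF the treated SDS22-degron libraries lie below the other 9 libraries. CCND1 separates the lines and not the treatments.

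CCND1, the D-type cyclin that is a classical target of growth factor and Wnt signalling, was the highest of the 9 genes in every library. It had 796, 905 and 893 CPM in untreated parental cells and 823, 768 and 847 CPM in treated parental cells. In SDS22-degron cells it had 1312, 1444 and 1479 CPM untreated and 1263, 1411 and 1473 CPM treated. All 6 SDS22-degron libraries thus lay above all 6 parental libraries, whereas treated and untreated libraries of each line overlapped. The log2 difference between the lines was 0.71 ± 0.08 (SE; edgeR quasi-likelihood test, adjusted p = 2.93e-06) untreated and 0.77 ± 0.08 (SE; edgeR quasi-likelihood test, adjusted p = 3.82e-07) with Dox/IAA, a fold of 1.63 and 1.70. The log2 change with Dox/IAA was -0.03 in SDS22-degron cells, with a 95% confidence interval from -0.19 to 0.13, and -0.09 in parental cells, with an interval from -0.25 to 0.07. CCND1 (ENSG00000110092; chr11:69641087-69654474, plus strand, GRCh38) overlaps ORAOV1 on the opposite strand, which had 2670 reads against 174457 for CCND1 over the 12 libraries.

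CCND3, a second D-type partner of CDK4 and CDK6, was the only cyclin called in parental cells by the model without a replicate block. Its level went from 40.8, 46.7 and 40.4 CPM untreated to 48.2, 64.2 and 52.1 CPM with Dox/IAA, a log2 change of 0.36 ± 0.10 (SE; edgeR quasi-likelihood test, adjusted p = 0.00766), and the groups did not overlap. In SDS22-degron cells it had 44.5, 47.7 and 50.2 CPM untreated and 55.1, 51.1 and 54.2 CPM treated. These groups did not overlap either, but the log2 change of 0.17 did not pass (edgeR quasi-likelihood test, adjusted p = 0.138). The difference between both changes was -0.19, with an interval from -0.47 to 0.09 (edgeR quasi-likelihood test, adjusted p = 0.382). The rise in the parental line therefore was not shown to be particular to it.

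CCND2, the remaining D-type cyclin, was almost not read in these cells. Its total was 3 reads over the 12 libraries, 1 in untreated SDS22-degron replicate 1 and 1 each in treated SDS22-degron replicates 1 and 3. It had 0 reads in all 6 parental libraries, and a count of 0 allows up to 3 counts, or 0.225 to 0.253 CPM per library. The gene did not pass the filter and no fold is given. It enters no test or median here.

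The E-type cyclins, which carry cells into S phase with CDK2, differed from each other. CCNE1 had 31.4, 46.6 and 37.2 CPM in untreated parental cells and 32.3, 40.1 and 32.8 CPM in treated parental cells. In SDS22-degron cells it had 31.0, 33.9 and 33.0 CPM untreated and 21.6, 18.7 and 23.9 CPM with Dox/IAA. The treated SDS22-degron libraries lay below all others, and the other 3 groups overlapped. The log2 fall in SDS22-degron cells was -0.61 ± 0.13 (SE; edgeR quasi-likelihood test, adjusted p = 0.000652). In parental cells the log2 change was -0.13 (edgeR quasi-likelihood test, adjusted p = 0.444). The difference between these changes, -0.48 ± 0.18 (SE), did not pass (edgeR quasi-likelihood test, adjusted p = 0.0823). In 17 of 20 alternatives it did not pass either, and it ran from -0.66 to -0.36 when single libraries were left out. It passed without untreated parental replicate 2, the highest CCNE1 library, at -0.66 (edgeR quasi-likelihood test, adjusted p = 0.00793). That fit kept treated parental replicate 2, the highest treated library of the line. The difference also passed without the filter on low counts, and with the replicate block at -0.48 (edgeR quasi-likelihood test, adjusted p = 0.04).

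CCNE2 set the lines apart before any treatment. It had 26.7, 27.4 and 22.7 CPM in untreated parental cells against 15.1, 16.0 and 12.8 CPM in untreated SDS22-degron cells. The groups did not overlap, and the log2 difference was -0.81 ± 0.13 (SE; edgeR quasi-likelihood test, adjusted p = 9.98e-05). With Dox/IAA it stood at 30.4, 35.3 and 28.6 CPM in parental cells and at 11.2, 8.13 and 8.24 CPM in SDS22-degron cells. The treated groups lay further apart than the untreated ones, at a log2 difference of -1.77 ± 0.13 (SE; edgeR quasi-likelihood test, adjusted p = 1.2e-08), and this was the largest difference of any cyclin in any comparison made. Within SDS22-degron cells the fall was -0.67 ± 0.14 (SE; edgeR quasi-likelihood test, adjusted p = 0.00063). In parental cells CCNE2 lay higher with Dox/IAA in all 3 libraries, at a log2 change of 0.30 that did not pass (edgeR quasi-likelihood test, adjusted p = 0.0637). The call of the parental change depended on the scaling, and passed at 0.36 with library sizes alone (edgeR quasi-likelihood test, adjusted p = 0.0316), and it also passed with the replicate block (edgeR quasi-likelihood test, adjusted p = 0.0212). Both changes differed from each other by -0.96 ± 0.18 (SE; edgeR quasi-likelihood test, adjusted p = 0.00172). CCNE2 lies on the minus strand and overlaps INTS8 and NDUFAF6 on the plus strand, with 12209 and 2324 reads against 3115 for CCNE2, so reads could be shared if strand was not used in counting. Over 593 genes of its chromosome, the median log2 difference between the lines was -0.11 untreated and -0.13 treated.

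CCNA2, the only A-type cyclin of somatic cells and a partner of both CDK2 and CDK1, was alike in both untreated lines. It had 101, 141 and 111 CPM in untreated parental cells and 117, 120.4 and 104 CPM in untreated SDS22-degron cells, and these ranges overlapped. With Dox/IAA it had 88.8, 127 and 94.2 CPM in parental cells but 53.0, 40.2 and 35.7 CPM in SDS22-degron cells, below all 9 other libraries. The fall in SDS22-degron cells was -1.40 ± 0.15 (SE; edgeR quasi-likelihood test, adjusted p = 3.47e-07), which left 37.8% of the untreated level. In parental cells the log2 change was -0.19 (edgeR quasi-likelihood test, adjusted p = 0.317). The 2 changes differed by -1.21 ± 0.20 (SE; edgeR quasi-likelihood test, adjusted p = 0.000615). CCNA2 (minus strand) overlaps EXOSC9 on the plus strand, which had 10031 reads against 14722.

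CCNB1, the main mitotic partner of CDK1, showed the largest fall with Dox/IAA. It had 215, 299 and 248 CPM in untreated parental cells and 177, 258 and 191 CPM in treated parental cells, so that these groups overlapped. In untreated SDS22-degron cells it had 281, 286 and 285 CPM, the tightest group of any cyclin with a coefficient of variation of 0.832%. With Dox/IAA these cells had 96.4, 88.9 and 77.6 CPM, a fall of -1.70 ± 0.13 (SE; edgeR quasi-likelihood test, adjusted p = 7.97e-09). Of all genes tested, 0.372% had a log2 change at or below this one. In parental cells the log2 change was -0.29 and did not pass (edgeR quasi-likelihood test, adjusted p = 0.0829) unless the replicate number was a block (edgeR quasi-likelihood test, adjusted p = 0.0253). In each of the 3 replicate pairs of the parental line the treated library was the lower one. The 2 changes differed by -1.41 ± 0.17 (SE; edgeR quasi-likelihood test, adjusted p = 5.39e-05).

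CCNB2, the Golgi-associated B-type cyclin, fell less than CCNB1 on the log2 scale. It had 78.0, 86.8 and 85.4 CPM in untreated parental cells and 68.9, 88.6 and 67.5 CPM in treated parental cells. In SDS22-degron cells it had 73.1, 70.0 and 74.0 CPM untreated and 37.6, 35.9 and 30.9 CPM treated, and the treated libraries lay below all others. The fall was -1.06 ± 0.10 (SE; edgeR quasi-likelihood test, adjusted p = 9.06e-08) in SDS22-degron cells, against a change of -0.15 (edgeR quasi-likelihood test, adjusted p = 0.227) in parental cells. The difference between the 2 changes was -0.90 ± 0.14 (SE; edgeR quasi-likelihood test, adjusted p = 0.000256). The processed pseudogene CCNB2P1 was read at a mean of 14.5 CPM in untreated parental cells and 5.47 CPM in treated SDS22-degron cells, so CCNB2 reads may have been split. With the reads of CCNB2P1 added, an alternative chosen after seeing the data, the fall of CCNB2 was -1.07.

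CCNF, which as the F-box subunit marks other proteins for degradation in G2, followed the same order of groups. It had 90.1, 116 and 99.4 CPM in untreated parental cells and 83.9, 104 and 79.5 CPM in treated parental cells. In SDS22-degron cells it had 79.9, 85.2 and 80.5 CPM untreated and 39.3, 30.4 and 36.5 CPM treated, the latter below all other libraries. The fall in SDS22-degron cells was -1.21 ± 0.11 (SE; edgeR quasi-likelihood test, adjusted p = 8.83e-08), and the change in parental cells was -0.19 (edgeR quasi-likelihood test, adjusted p = 0.18). The 2 changes differed by -1.02 ± 0.15 (SE; edgeR quasi-likelihood test, adjusted p = 0.000265). CCNF was also lower in untreated SDS22-degron than in untreated parental cells, by -0.32 (edgeR quasi-likelihood test, adjusted p = 0.0323). That call was lost when any of 5 of the 6 untreated libraries was left out, and without untreated parental replicate 2 the difference was -0.19 (edgeR quasi-likelihood test, adjusted p = 0.21). Over the 726 tested genes of chromosome 16, where CCNF lies, the median log2 difference between the lines was -0.30 untreated and -0.31 treated. Its part in the CCNF difference was not tested.

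**Figure D2:**
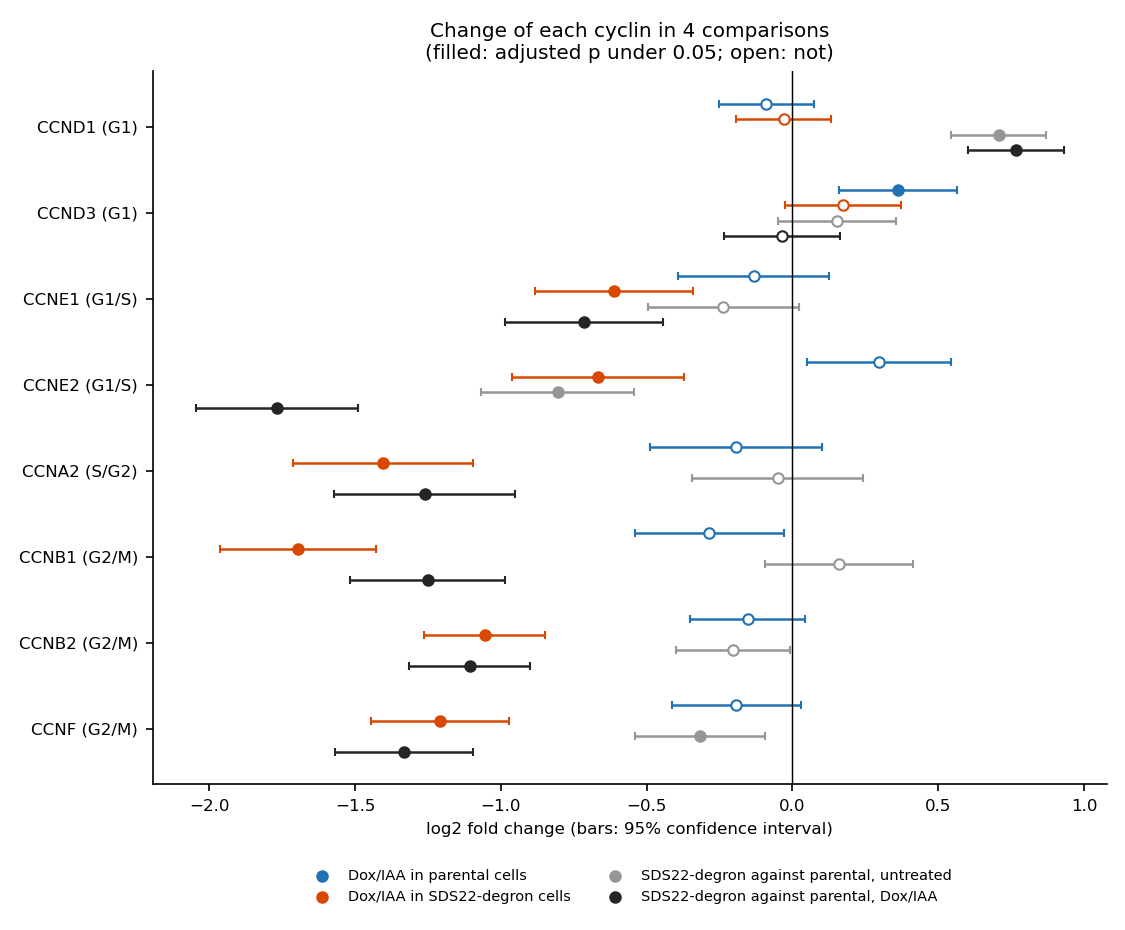
Log2 fold change (x axis) of each tested cyclin (rows, from G1 to G2/M) in 4 comparisons, with 95% confidence intervals from the edgeR fit. From CCNE1 downwards both points for treated SDS22-degron cells lie left of 0 and are filled, while with Dox/IAA in parental cells the filled point is that of CCND3.

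Placed side by side, the comparisons between lines differed before and after treatment. In untreated cells, CCNE2 and CCNF were lower and CCND1 was higher in the SDS22-degron line, that is 2 of 8 and 1 of 8, where 15% of all genes tested were lower and 13.2% higher. In treated cells 6 of 8 were lower, the genes that fell with Dox/IAA in SDS22-degron cells, and CCND1 was higher, where 23.1% of all genes were lower and 21.8% higher. CCNE1 had a log2 difference of -0.72 ± 0.13 (SE; edgeR quasi-likelihood test, adjusted p = 0.000196) there, and CCNA2, CCNB1, CCNB2 and CCNF lay between -1.11 and -1.33. The comparisons share libraries and so are not independent of each other. The cut-off used in the study asks for a log2 fold change beyond 1 in either direction with p under 0.05 before adjustment. It was applied here to the p of the quasi-likelihood test, whereas the study used edgeR's likelihood ratio test. At this cut-off 4 cyclins passed with Dox/IAA in SDS22-degron cells (7.83% of all genes) and 0 in parental cells (3.14%). Between the lines 5 passed when treated (6.63% of all genes) and 0 when untreated (4.14%).

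The difference between the Dox/IAA changes of the lines, the interaction in the model, was below 0 for 5 of 8 cyclins at an adjusted p under 0.05 and above 0 for none. Over all genes tested 8.35% were below 0 and 6.03% above 0 by the edgeR quasi-likelihood test. Those 5 cyclins were CCNE2, CCNA2, CCNB1, CCNB2 and CCNF, and CCNE1 joined them with the replicate block. The median over the 8 cyclins was -0.93 on the log2 scale, and that over all genes -0.00192. At the study's cut-off the interaction held 3 cyclins, CCNA2, CCNB1 and CCNF, against 3.60% of all genes. For CCND1 the interval of the difference ran from -0.17 to 0.29, and for CCND3 it is given above.

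The untreated parental replicates varied more than the untreated SDS22-degron replicates for several of these genes. The coefficients of variation of CCNA2 and CCNB1 were 17.7% and 16.6% in untreated parental cells and 7.65% and 0.832% in untreated SDS22-degron cells. With Dox/IAA they were 19.9% and 20.9% in parental cells and 20.9% and 10.8% in SDS22-degron cells. CCNA2 thus did not vary more in treated parental cells. In both parental groups replicate 2 was the highest of 3 libraries for CCND3, CCNE1, CCNE2, CCNA2, CCNB1, CCNB2 and CCNF. Without treated parental replicate 2, CCNA2 (-0.36), CCNB1 (-0.47), CCNB2 (-0.29) and CCNF (-0.32) passed as lower with Dox/IAA in parental cells. That fit kept untreated parental replicate 2, the highest untreated parental library for these genes, so it was unbalanced. With the replicate block, which kept both libraries, CCNA2, CCNB2 and CCNF did not pass. CCNB1 also passed there with the replicate block (-0.29), without the filter on low counts (-0.29) and without untreated parental replicate 1 (-0.40). The changes in SDS22-degron cells stayed at 6 falling cyclins without any 1 library.

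Levels of different genes were compared as RPKM, the CPM divided by the deposited gene length in kilobases, which covers all annotated exons. On this scale the order in untreated parental cells was CCND1 (179 ± 12.4, SD, n = 3), CCNB1 (99.4 ± 16.5), CCNA2 (42.1 ± 7.47), CCNB2 (29.8 ± 1.68), CCNF (16.2 ± 2.11), CCNE1 (15.1 ± 3.01), CCND3 (7.34 ± 0.61) and CCNE2 (5.81 ± 0.58), with CCND2 at 0. CCNF and CCNE1 overlapped, and no other neighbours in the order did. Treated parental and untreated SDS22-degron cells had the same order with the same overlap. In treated SDS22-degron cells CCND1 still led at 286 ± 22.3 RPKM, followed by CCNB1 at 34.3 ± 3.70. CCNA2 (15.4 ± 3.20) and CCNB2 (12.4 ± 1.24) then overlapped, as did CCND3 (9.21 ± 0.36) and CCNE1 (8.38 ± 1.03). CCNF, at 5.61 ± 0.72 RPKM, now stood seventh, below CCND3 and CCNE1.

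**Figure D3:**
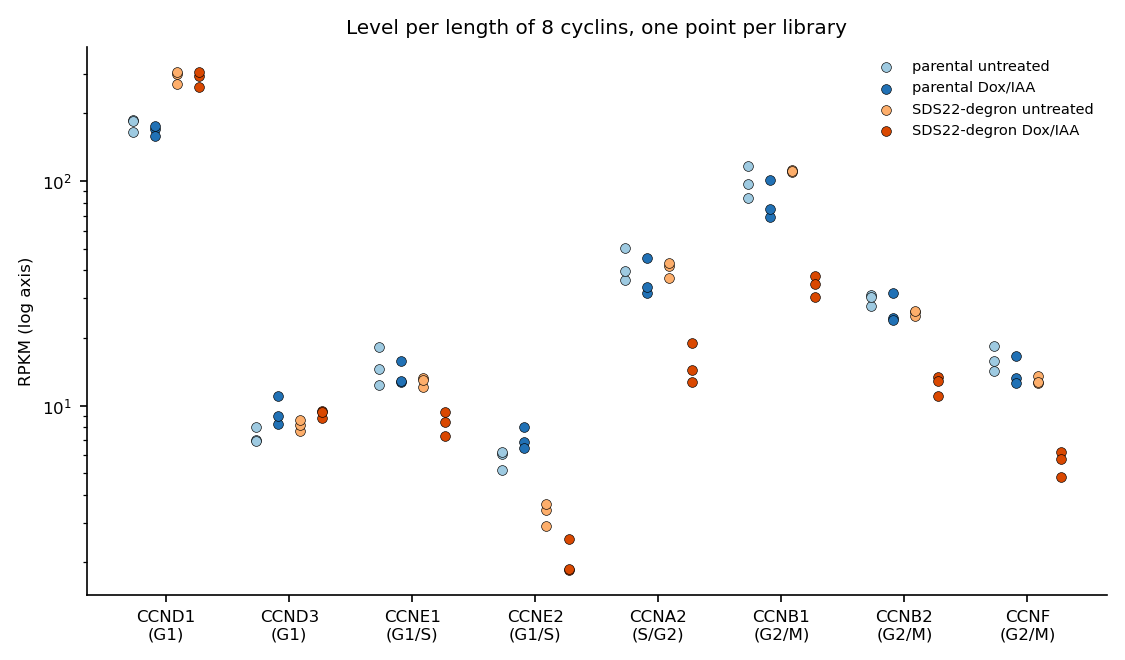
Level per length (RPKM, log axis) of the 8 tested cyclins, from G1 to G2/M, with 1 point per library and colours for the 4 groups. CCND1 stays near 286 RPKM in treated SDS22-degron cells, whereas CCNE1, CCNE2, CCNA2, CCNB1, CCNB2 and CCNF lie below the other groups there.

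The levels were also taken as shares of the summed RPKM of the cyclins, where the share of a gene depends on the levels of the others. CCND1 made up 45.5 ± 2.24% of the sum in untreated and 47.3 ± 5.48% in treated parental cells, against 57.6 ± 1.57% in untreated and 76.5 ± 3.18% in treated SDS22-degron cells (SD, n = 3). The joint share of CCNB1, CCNB2 and CCNF was 36.7 ± 1.19%, 34.0 ± 3.80%, 29.6 ± 0.92% and 14.0 ± 1.89% in the same order. The lowest CCND1 share in treated SDS22-degron cells (73.0%) lay above the highest of any other group (59.1%), while the log2 change of CCND1 itself was -0.03 there. CCNB1 stood at 4.21 to 4.47 times CCNB2 in untreated SDS22-degron cells and at 2.72 to 2.81 times with Dox/IAA, without overlap, whereas in parental cells the ratio was 3.02 to 3.77 untreated and 2.81 to 3.19 treated, with overlap. CCNE1 stood at 2.03 to 2.94 times CCNE2 in untreated and 1.84 to 1.98 times in treated parental cells, against 3.54 to 4.46 times in untreated and 3.32 to 5.0 times in treated SDS22-degron cells. The E-type ratio thus set the lines apart, was lower with Dox/IAA than without in the parental libraries and overlapped between treated and untreated SDS22-degron libraries. These ratios are descriptions and were not tested.

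The genes of CCNA2, CCNB1, CCNB2 and CCNF moved together, and genes of this class are known to be controlled through CCAAT boxes, bound by NF-Y, and through the cell cycle genes homology region (CHR), bound by the MuvB complex. Their promoters are printed here for that reason, with CCNE1, which fell less, for contrast. Each line is the 250 bases before the RefSeq start site on the strand of the gene in GRCh38.p14, and capitals mark matches to the CCAAT box (CCAAT) or the CHR (TTTGAA or TTCGAA) on either strand. The windows lie at chr4:121823884-121824133 (CCNA2, minus strand), chr5:69166900-69167149 (CCNB1, plus strand), chr15:59104896-59105145 (CCNB2, plus strand), chr16:2429197-2429446 (CCNF, plus strand) and chr19:29811741-29811990 (CCNE1, plus strand).
CCNA2: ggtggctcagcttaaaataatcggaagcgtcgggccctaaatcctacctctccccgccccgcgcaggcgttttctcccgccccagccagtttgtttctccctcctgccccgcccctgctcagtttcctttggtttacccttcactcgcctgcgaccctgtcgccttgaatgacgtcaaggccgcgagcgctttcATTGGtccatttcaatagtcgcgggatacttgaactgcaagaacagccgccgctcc
CCNB1: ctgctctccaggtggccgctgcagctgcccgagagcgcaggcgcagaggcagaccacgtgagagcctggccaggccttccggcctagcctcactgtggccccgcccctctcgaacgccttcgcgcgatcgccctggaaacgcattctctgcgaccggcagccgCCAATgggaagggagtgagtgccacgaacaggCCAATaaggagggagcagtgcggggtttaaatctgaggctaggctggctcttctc
CCNB2: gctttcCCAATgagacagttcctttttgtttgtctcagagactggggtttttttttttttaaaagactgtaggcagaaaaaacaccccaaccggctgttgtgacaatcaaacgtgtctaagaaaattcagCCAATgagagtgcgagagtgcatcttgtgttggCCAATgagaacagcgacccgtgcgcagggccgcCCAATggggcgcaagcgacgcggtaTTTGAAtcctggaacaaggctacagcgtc
CCNF: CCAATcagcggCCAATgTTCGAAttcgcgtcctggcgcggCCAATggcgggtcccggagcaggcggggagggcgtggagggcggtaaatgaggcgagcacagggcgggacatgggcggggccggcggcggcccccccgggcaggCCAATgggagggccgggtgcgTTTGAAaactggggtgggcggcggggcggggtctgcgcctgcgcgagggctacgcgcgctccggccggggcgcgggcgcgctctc
CCNE1: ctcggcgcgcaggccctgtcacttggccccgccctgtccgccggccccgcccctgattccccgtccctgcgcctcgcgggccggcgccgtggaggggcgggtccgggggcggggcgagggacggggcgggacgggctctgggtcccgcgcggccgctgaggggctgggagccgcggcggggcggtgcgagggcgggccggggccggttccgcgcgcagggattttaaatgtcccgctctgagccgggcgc
Windows were given for 6 of the 9 cyclins, with 3 for CCND3.

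CCAAT boxes were found in all 4 promoters of the cyclins that fell most and not in that of CCNE1, which fell less. They were also found in windows of CCND3, whose log2 change with Dox/IAA in SDS22-degron cells was 0.17 and not called. The boxes were thus not limited to cyclins that fell. CCNA2 had 1, in the reverse orientation at -56 from the start site, and CCNB1 had 2, at -87 and -55. CCNB2 had 4, at -244, -120, -87 and -54, and CCNF had 4, at -250, -239, -210 and -106. The CHR was matched at -29 in CCNB2 and at -233 and -85 in CCNF, and these letters were not in the windows of CCNA2, CCNB1 and CCNE1. Only TTTGAA and TTCGAA were searched, so a CHR spelled with other letters would be missed. These 3 promoters are therefore not shown to lack a CHR. No window of the 6 cyclins matched the letters of an E2F site (TTTGGCGC, TTTCCCGC, TTTGCCGC or TTTCGCGC) or a TATA box (TATAAA). Each was searched on both strands over 300 bases that reach 50 past the start. Sites that depart from these exact letters would be missed, so E2F sites are not shown to be absent. Among all 35116 RefSeq windows of that length, 34.6% held a CCAAT box, 10.8% held 2 or more, 16.4% a CHR, 1.91% a CHR with 2 or more CCAAT boxes, 3.31% an E2F site and 11.5% a TATA box. One of the 3 windows of CCND3 had no match and the others had 1 CCAAT box each. The motifs do not overlap one another in these windows. A match is a string of letters and not a measured binding site.

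**Figure D4:**
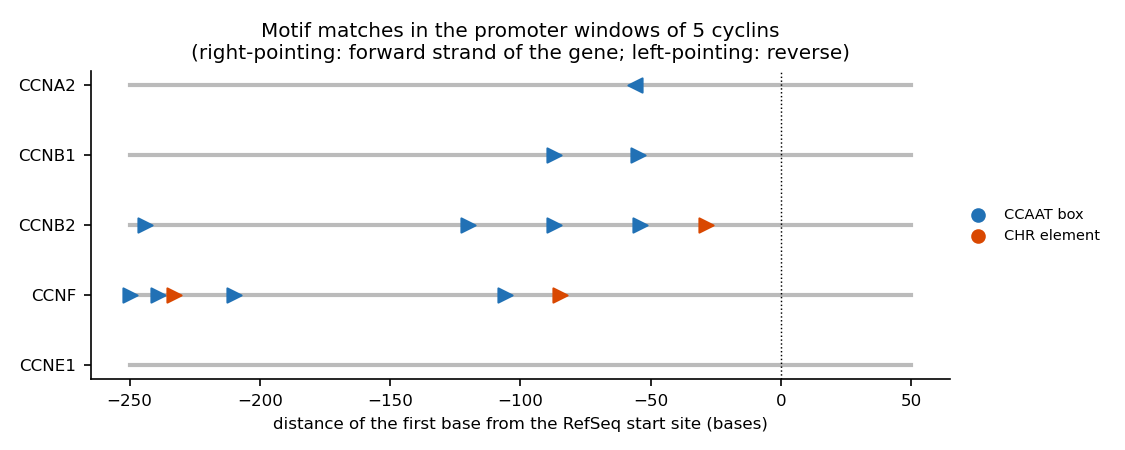
Matches to the CCAAT box and the CHR in 5 cyclin promoters, by distance in bases of the first base from the RefSeq start site (x axis), with the arrow giving the orientation. CCNB2 and CCNF hold 4 CCAAT boxes each, and CCNE1 has no match to the letters searched for either motif. The windows of CCND3, some of which hold a CCAAT box, are not drawn.

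The partners and regulators of the cyclins were read from the same fit, as lists of known members. Each list's count in the interaction stands beside the share of all genes tested, which was 8.35% below 0 and 6.03% above 0, and no list was tested as a whole. Of 8 CDKs and CDK-associated subunits, 4 had an interaction below 0 and none above, with a list median of -0.45. CDK1, the kinase of the A- and B-type cyclins, had the largest, at -1.18 ± 0.16 (SE; edgeR quasi-likelihood test, adjusted p = 9e-05), with means of 137, 126, 156 and 63.4 CPM in untreated and treated parental and untreated and treated SDS22-degron cells. CDK4, the partner of the D-type cyclins, had the smallest of the 4, at -0.44 (edgeR quasi-likelihood test, adjusted p = 0.00261). CDK4 fell in both lines, by -0.85 in SDS22-degron and -0.40 in parental cells on the log2 scale.

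Among the kinases and phosphatases that gate CDK1, 4 of 5 tested were below 0 in the interaction (8.35% of all genes), with a median of -1.21. The largest was PKMYT1, a kinase that puts inhibitory phosphates on CDK1, at -1.30 (edgeR quasi-likelihood test, adjusted p = 9.42e-05), and the smallest of the 4 was WEE1, which does so as well, at -0.78 (edgeR quasi-likelihood test, adjusted p = 0.000284). CDC25A and CDC25C, which remove these phosphates, were also below 0. Of 7 CDK inhibitors, 1 was above 0 (6.03% of all genes) and 6 did not pass, and it was CDKN1A, which encodes p21. CDKN1A had means of 263, 273, 504 and 824 CPM in the same order of groups, so that it was higher in the SDS22-degron line before treatment and rose there by 0.71 with Dox/IAA. Its interaction was 0.65 ± 0.12 (SE; edgeR quasi-likelihood test, adjusted p = 0.0011).

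Another list held 14 genes that carry out, promote or restrain the ubiquitination of cyclins. Of these, 5 were below 0 in the interaction (8.35% of all genes), none above (6.03%) and 9 did not pass, with a median of -0.07. CDC20, which directs the anaphase-promoting complex to the B-type cyclins, had the largest at -1.40 ± 0.17 (SE; edgeR quasi-likelihood test, adjusted p = 4.24e-05). SKP2, an F-box protein of the SCF ligase, had the smallest of the 5 at -0.64 (edgeR quasi-likelihood test, adjusted p = 0.00364). The ligase core genes CUL1, SKP1 and RBX1, and FBXW7, the F-box protein that recognises cyclin E, did not pass.

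Of 13 genes of the E2F and RB family, which set the transcription of E- and A-type cyclins, 7 were below 0 (8.35% of all genes) and 2 above (6.03%). E2F8, an atypical repressor E2F, had the lowest value of all list genes at -1.81 ± 0.21 (SE; edgeR quasi-likelihood test, adjusted p = 3.93e-05). TFDP2, a dimer partner of the E2Fs, and RBL2, which encodes the pocket protein p130 of resting cells, were above 0, at 0.58 (edgeR quasi-likelihood test, adjusted p = 0.00919) and 0.55 (edgeR quasi-likelihood test, adjusted p = 0.0012). Both were also lower in untreated SDS22-degron than in untreated parental cells. Of 11 genes for MuvB, its partners and NF-Y, 4 were below 0 (8.35% of all genes) and none above (6.03%). They included MYBL2, at -1.42 (edgeR quasi-likelihood test, adjusted p = 3.8e-05), and FOXM1, at -1.17 (edgeR quasi-likelihood test, adjusted p = 7.46e-05), which activate G2/M genes together with MuvB. LIN54, the subunit that contacts the CHR, had the smallest of the 4 at -0.56 (edgeR quasi-likelihood test, adjusted p = 0.00972), and NFYA, NFYB and NFYC did not pass.

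The other members of the cyclin family mostly serve transcription or other processes. Of 21 such genes that the counts list, 18 were tested, 0 were below 0 in the interaction (8.35% of all genes), 1 was above (6.03% of all genes) and 17 did not pass, with a median of 0.18. With Dox/IAA in SDS22-degron cells 2 of the 18 fell and 8 rose, where 25.5% of all genes were lower and 26.0% higher. The gene above 0 was CCNG2, a cyclin known from cells that leave the cycle, which had 28.7, 34.5, 26.6 and 59.2 CPM on average in the same order of groups. Its interaction was 0.88 ± 0.19 (SE; edgeR quasi-likelihood test, adjusted p = 0.0045).

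**Figure D5:**
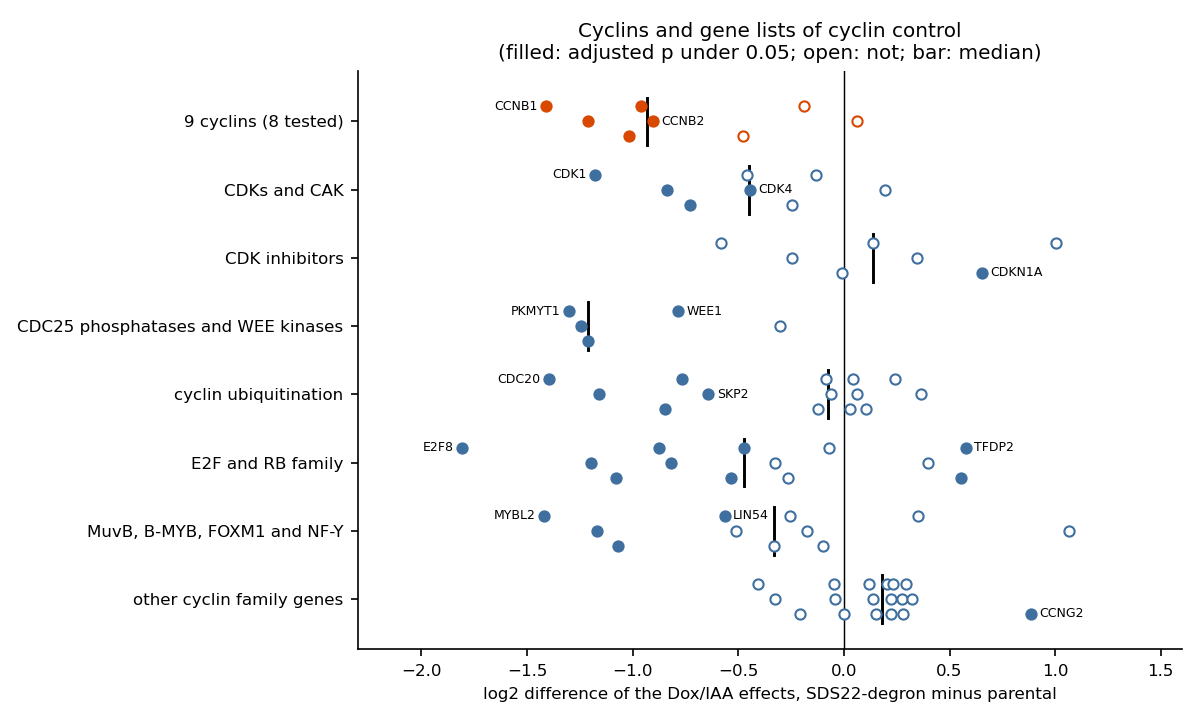
Log2 difference of the Dox/IAA changes, SDS22-degron minus parental (x axis), for the cyclins (top row) and 7 lists of related genes, with 1 point per gene, filled where the adjusted p is under 0.05, and a bar for the median. The filled points of the cyclins lie between -1.41 and -0.90, and those of the other cyclin family genes comprise CCNG2 alone; the lowest and the highest filled point of each row are named.

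Across the 12 libraries the log2 CPM of CCNA2, CCNB1, CCNB2 and CCNF correlated with one another at a Pearson r of 0.931 to 0.9788. CCNE1 was closer to CCNF (0.9619) than to CCNE2 (0.8014), and CCND1 ran against CCNE2 (-0.9166). The libraries form 4 groups with shared treatment, so these values are descriptions. Among 10850 other genes with a mean of at least 10 CPM, the nearest to CCNB1 were TOP2A (0.9936), NCAPH (0.9931) and KIF18B (0.993), and those nearest to CCNB2 were PLK1 (0.996), MDC1 (0.9947) and OIP5 (0.9933). CCNA2 was nearest to PSRC1 (0.9941), HMMR (0.9928) and ZGRF1 (0.9916). CCNF was nearest to NUP188 (0.9933), TUBB (0.9933) and ORC1 (0.9928). The E-type cyclins had other neighbours, SF3B4 (0.9773), GCLM (0.9737) and ADAM15 (0.9693) for CCNE1 and ATP13A3 (0.9919), SLX4 (0.9837) and KDELC2 (0.9808) for CCNE2. CCND1 was nearest to SH3BP4 (0.9863), NSMF (0.985) and RUNX2 (0.9832). CCND3 had the loosest neighbours, ZDHHC12 (0.9315), CPPED1 (0.9215) and CCDC82 (0.8865).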

How the data were processed

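RNA was sequenced from 12 HCT116 cultures (4 groups of 3, named biological replicates by the labels) as stranded, poly-A selected single reads. Per gene, the authors deposited raw read counts, not normalized, with each gene's position, length and GC percent, and per the labels the GC percent is an annotation and was not used. The submitters' processing notes name cutadapt 1.15, Bowtie2 2.3.3.1, STAR 2.5.2b, SAMtools 1.5, featureCounts 1.5.3 and the build GRCh38, without their roles. The strand setting and annotation release are not given in the sources used here, so overlapping genes on opposite strands could share reads. All columns were mapped to samples.

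Genes were kept with filterByExpr (minimum count 10), scaled by TMM (factors 0.971 to 1.03) and fitted over all 12 libraries with 1 mean per group in edgeR 4.0.16 (R 4.3.3) (common biological coefficient of variation 7.48%). Contrasts used the quasi-likelihood F test with Benjamini-Hochberg adjustment over 16657 genes at 0.05. Intervals (95%) came from the fold change and its F statistic. The study's own test was edgeR's likelihood ratio test. Log2 CPM used a prior count of 2. The script was tested on simulated counts. DESeq2 1.42.0, other scalings and filters, a replicate block, a fit of only the groups compared and leaving out each library were alternatives. Counting floors (3 counts) cover counting error only. Replicate numbers come from the labels, which do not say that a number marks a shared batch. Deviations from the group means correlated between same-numbered libraries at 0.124, 0.246 and 0.131 for untreated and treated parental cells and at 0.101, 0.133 and 0.138 for the treated lines, so blocked values are given for these comparisons where a call changed. The values were lower for the untreated lines, at 0.058, 0.098 and 0.118, and for untreated and treated SDS22-degron cells, at 0.026, -0.009 and 0.095. The blocked interaction takes in these pairs as well.

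The cyclins and the gene lists were chosen with earlier results of these data known. Named genes were the 9 cyclins, the called genes with the largest and the smallest interaction in each list, and the 3 genes with the highest correlation to each cyclin. CDC25A, CDC25C, FOXM1, RBL2, CUL1, SKP1, RBX1, FBXW7, NFYA, NFYB and NFYC were named after their values were seen. Promoters were RefSeq windows of GRCh38.p14.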

Additional observations from a re-analysis of the deposited data

Results flagged for a closer look

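For 5 cyclins the change with Dox/IAA differed between the SDS22-degron and the parental line by the interaction term of the edgeR quasi-likelihood test. The log2 difference was -0.96 for CCNE2 (adjusted p = 0.00172), -1.21 for CCNA2 (adjusted p = 0.000615), -1.41 for CCNB1 (adjusted p = 5.39e-05), -0.90 for CCNB2 (adjusted p = 0.000256) and -1.02 for CCNF (adjusted p = 0.000265), each in edgeR. The treated SDS22-degron libraries were lower than the untreated ones in 3 of 3 for each. With 3 libraries per group, no group was large enough to be searched for single outlying libraries.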

How the results depend on the processing

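The 6 falling cyclins in SDS22-degron cells and the 7 called between the treated lines were 6 and 7 under every alternative except the study's cut-off, which gave 4 and 5. Of 645 alternative values of single cyclins, 614 kept their direction and side of the threshold. In parental cells, where 1 cyclin was called, 2 were called with library sizes alone or upper quartile factors, 3 without a filter and 3 with the replicate block. At the study's cut-off 0 were called in parental cells, 0 between the untreated lines and 3 in the interaction. Leaving out single libraries gave 1 to 5 in parental cells, 2 to 4 between the untreated lines and 5 to 6 in the interaction. The count was 5 without treated parental replicate 2 and 2 without untreated parental replicate 1. CCNF between the untreated lines no longer passed with library sizes alone (adjusted p = 0.0542 in edgeR) or upper quartile factors (adjusted p = 0.0534 in edgeR), and CCNB2 there passed with only the groups compared (adjusted p = 0.0356 in edgeR). The CCNE1 interaction passed without a filter (adjusted p = 0.0115 in edgeR). The causes were not tested.

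Signs turned where no call was made. CCND1 with Dox/IAA in SDS22-degron cells was 0.00946 with library sizes alone and ran from -0.0947 to 0.0189 when single libraries were left out. The same ranges ran from -0.266 to 0.0335 for CCNE1 with Dox/IAA in parental cells, -0.141 to 0.12 for CCNA2 between the untreated lines, -0.127 to 0.11 for CCND3 between the treated lines and -0.00362 to 0.11 for the CCND1 interaction. With library sizes alone, the share lower among called genes in parental cells went from 49.5% to 35.9%. Genes called were 8580, 5264, 7486, 4698 and 2396 (SDS22-degron, parental, treated lines, untreated lines, interaction) and 1305, 523, 1105, 689 and 600 at the study's cut-off.

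Over all 4 groups, deviations of 18 same-numbered pairs correlated at -0.0569 to 0.246, above 0.1 in 7. When correlations were averaged by replicate number over the other groups, all 12 libraries were highest with their own number. This did not hold for each single pair. With the replicate block CCNE2 at 0.30 (adjusted p = 0.0212 in edgeR) and CCNB1 at -0.29 (adjusted p = 0.0253 in edgeR) passed in parental cells, as did the CCNE1 interaction at -0.48 (adjusted p = 0.04 in edgeR), and no other cyclin's call moved. At this depth CCND2 could not be tested.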
